A study of Tachysurus ussuriensis with 12 samples.

Results

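Of 84875 assembled transcripts of a freshwater bagrid catfish, Tachysurus ussuriensis (named Pseudobagrus in the study), 205 (0.242%) were present in every gill library, nearly or wholly missing from every kidney library, and of similar level at 24 h and 0 h. A transcript was chosen when its level was 3 FPKM or more in all 6 gill libraries and below 0.1 FPKM in all 6 kidney libraries. In addition, its mean log2(FPKM + 1) in gill at 24 h and at 0 h had to differ by less than 1. FPKM are fragments scaled to transcript length and library size, so levels can be compared between transcripts. The 12 libraries came from gill at 24 h, gill at 0 h, kidney at 24 h and kidney at 0 h of acute salinity stress, with 3 libraries in each group. The labels give no strain, age, sex or salinity, do not say whether the 3 libraries of a group came from separate fish, and name no group kept for 24 h without salinity stress. The study compared transcript levels of gill and kidney.

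The gill is the organ of gas exchange in fish and, with the kidney, the main organ of ion and water balance. Its surface is a mosaic of flat pavement cells, mitochondria-rich ionocytes that move sodium, chloride and other ions, and mucous cells, over a skeleton of cartilage and blood vessels. In fresh water, ionocytes take up ions from the water while the kidney keeps filtered ions and makes dilute urine. Kidney of bony fish holds blood-forming tissue beside its tubules. The deposited IDs are not paired with gene names, so neither the roles of the 205 transcripts nor the markers of these cell types could be read from the data. Whether the tissues match their labels could therefore not be checked on marker genes. Levels in a whole tissue cannot tell more cells of a type from more RNA per cell.

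Kidney 0 h replicate 2 stood apart from the other libraries. Its median FPKM was 1.26, against 1.85 to 2.22 in the other 11, and its correlations with kidney libraries ran from 0.816 to 0.838, while those among the other 5 kidney libraries ran from 0.865 to 0.912 (log2 scale, tested transcripts). Without it the rule would choose 233 transcripts, and without any other single kidney library 215 to 241. All 205 stay among them by construction, since leaving out a kidney library can only loosen the rule. Without kidney 0 h replicate 2, the comparison of 120 neighbouring transcripts described last called 99 between the tissues. Of these, 92 were higher and 7 lower in gill. The shares of all tested transcripts without that library are not given here. With that library, 97 were called (93 higher and 4 lower), against 21.8% higher and 19.8% lower among all tested transcripts.

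The choice rested on the levels themselves, so the contrast between the tissues and the small difference over time are descriptions of the rule. The rule kept 205 of 225 gill-limited transcripts (91.1%); of the rest, 7 were higher at 24 h by 1 or more on the log2 scale and 13 lower. In the mirrored direction, 83 of 92 kidney-limited transcripts (90.2%) were steady. The 205 were 0.957% of the 21427 transcripts at 3 FPKM or more in all gill libraries. At the edges of the rule, the lowest gill value of a member was 3.02 FPKM and the nearest transcript left out on that count had 2.965 FPKM. The highest kidney value of a member was 0.0984 FPKM, against 0.102 FPKM in the nearest transcript left out. The largest difference over time inside the limit was 0.99 on the log2 scale, and the smallest outside it was 1.10. The edges were populated: 56 members had a gill library below 4 FPKM, and 131 transcripts met the rest of the rule with their lowest gill library between 2 and 3 FPKM. Likewise 68 members had a kidney library at 0.05 FPKM or more, and 123 transcripts missed the rule with a kidney maximum between 0.1 and 0.2 FPKM.

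Most of the gill-limited steady transcripts were of low to moderate abundance. Their mean gill level had a median of 8.23 FPKM and ran from 3.85 to 69.2 FPKM, with an interquartile range of 5.93 to 10.9 FPKM. All transcripts at 3 FPKM or more in the 6 gill libraries had a median of 10.6 FPKM, and the most abundant transcript in gill reached 11600 FPKM. A mean gill level of 10 FPKM or more was found in 66 members, of 20 or more in 15 and of 40 or more in 3. At 24 h the median level of the 205 was 7.91 FPKM, and at 0 h it was 8.33 FPKM. Together they held between 0.267% and 0.325% of the summed FPKM of a gill library, and between 0.000257% and 0.000445% of that of a kidney library.

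**Figure D1:**
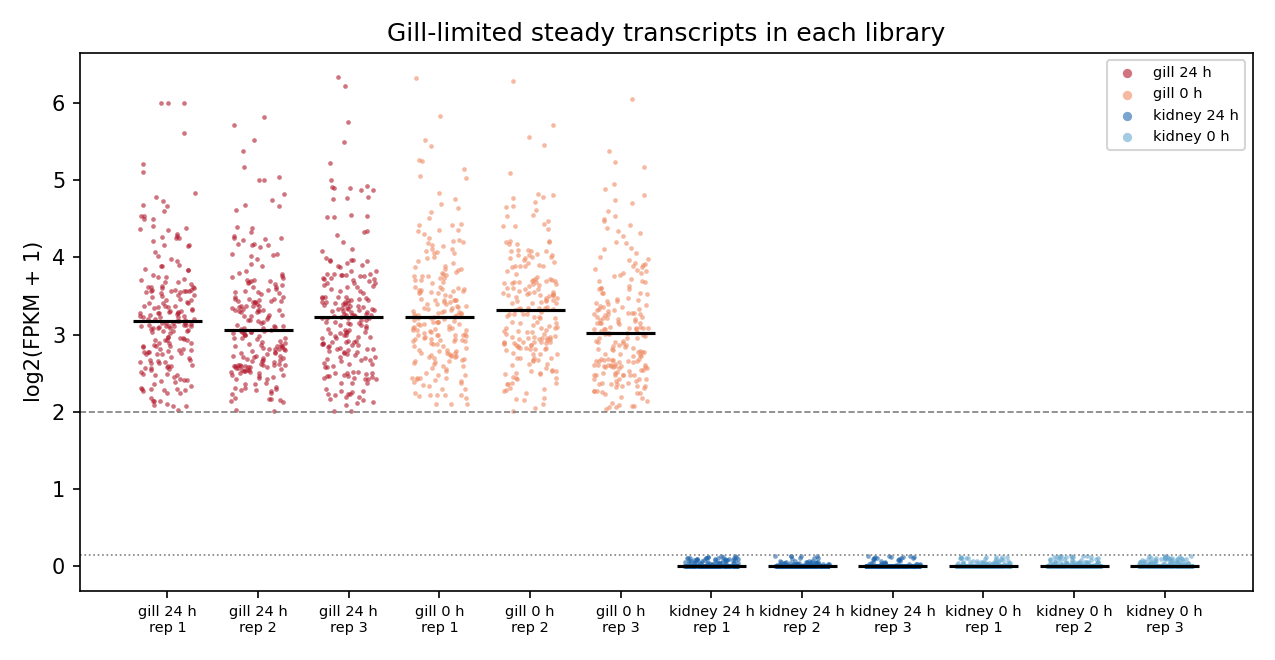
Levels of the 205 gill-limited steady transcripts in each of the 12 libraries, as log2(FPKM + 1); each point is a transcript and each bar a library's median. The dashed line marks 3 FPKM and the dotted line 0.1 FPKM. Gill medians lie between 7.09 and 9 FPKM and all kidney medians at 0.

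The most abundant member was TRINITY_DN28862_c0_g1_i9_2. It had 62.9, 51.3 and 79.5 FPKM in gill at 24 h, against 79.5, 76.7 and 65.4 FPKM in gill at 0 h. The ranges of the times overlapped, and the difference of 24 h minus 0 h was -0.21 on the log2 scale (SE 0.18). In kidney it had 0.0575 and 0.00469 FPKM in replicates 1 and 2 of 24 h and 0.0602 FPKM in replicate 2 of 0 h. The other 3 kidney libraries listed values below 1e-06 FPKM.

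TRINITY_DN28221_c1_g3_i7_2 was the other named member with a slightly lower mean at 24 h. Its levels were 26.4, 55.7 and 26.0 FPKM in gill at 24 h, against 55.9, 25.4 and 35.1 FPKM in gill at 0 h. Each time held a library near 56 FPKM and a library near 26 FPKM, so the spread within a time far exceeded the difference of -0.12 on the log2 scale (SE 0.32). It was listed at 0 in 5 kidney libraries and at 2.87e-21 FPKM in the other.

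Among members with a higher mean at 24 h, TRINITY_DN26995_c4_g2_i2_4 had the highest mean on the log2 scale, although TRINITY_DN27850_c2_g1_i9_4 was higher in mean FPKM. It had 47.9, 40.5 and 52.9 FPKM in gill at 24 h, against 42.5, 46.3 and 30.0 FPKM in gill at 0 h. The times overlapped, with a difference of 0.26 on the log2 scale (SE 0.19). In kidney at 24 h it had 0.0248 FPKM in replicate 3 and less than 1e-06 FPKM in replicates 1 and 2. All 3 kidney libraries of 0 h held a trace of it, at 0.0523, 0.0318 and 0.0951 FPKM, the last value just below the limit of the rule.

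TRINITY_DN27850_c2_g1_i9_4 met the rule by a narrow margin. It had 63.1, 45.1 and 73.3 FPKM in gill at 24 h, against 37.2, 27.1 and 25 FPKM in gill at 0 h. Every 24 h library lay above every 0 h library. The difference of 0.99 on the log2 scale was the largest of the 205 (SE 0.21), and in the fit across all transcripts it was not called (limma adjusted p = 0.0563). With pseudocount 0.1 the difference was 1.02 and with equal library totals 1.03, outside the limit. It was called with equal totals (limma adjusted p = 0.0456) and without kidney 0 h replicate 2 (0.0319), within a range over all alternatives of 0.0319 to 0.239. The rule used this contrast, so these values are a description. In kidney it reached 0.00644 FPKM in replicate 2 of 0 h and stayed below 1e-06 FPKM elsewhere. This transcript shows that steady, as the rule defines it, allows close to a doubling on the log2(FPKM + 1) scale. Mean FPKM can differ by more. It was 60.5 FPKM at 24 h against 29.7 FPKM at 0 h in this member, and 9.75 against 25.4 FPKM in another.

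**Figure D2:**
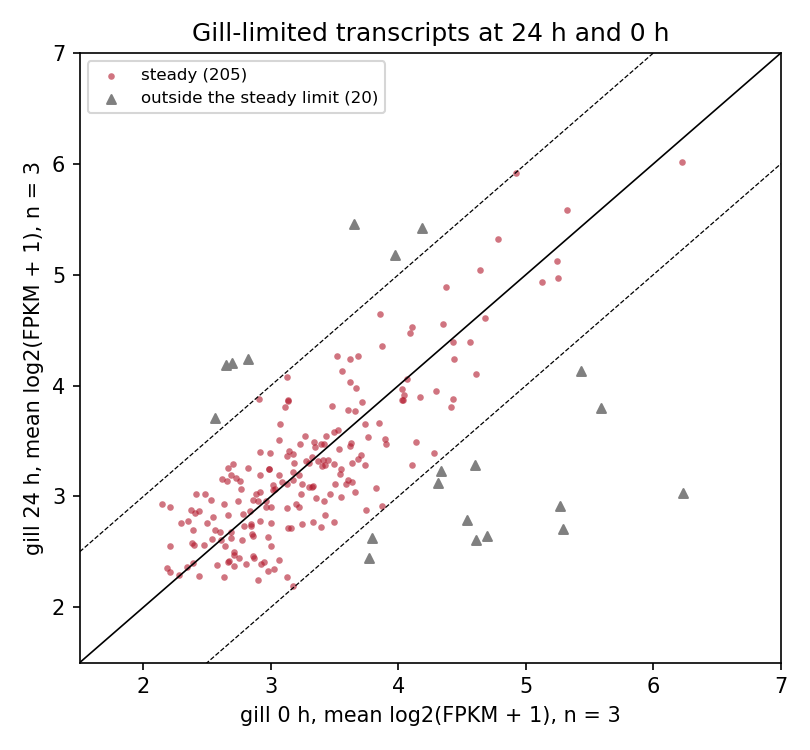
Mean log2(FPKM + 1) of gill at 24 h (y axis) against gill at 0 h (x axis) for gill-limited transcripts, 3 libraries each. Red points are the 205 steady transcripts, grey triangles the 20 others; the solid line marks equal levels and the dashed lines a difference of 1. The 205 have a median difference of -0.02.

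Over the 205, the difference of 24 h minus 0 h in gill had a median of -0.02 on the log2 scale, with an interquartile range of -0.28 to 0.26. It was above 0 in 98 and below 0 in 107. In 95 members (46.3%) it was smaller than 0.25, and in 158 (77.1%) smaller than 0.5. The median SE of the difference was 0.228 in a limma fit to all 12 libraries and 0.217 with the gill libraries fitted alone. In the fit to all 12, the 95% interval of the difference lay within the limit of the rule in 148 members. It reached past the limit in 57, and in 72 with gill fitted alone. The interval included 0 in 161 members in either fit. As the rule used this contrast, these counts are descriptions.

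The fit to all 12 libraries called 1 of the 205 between 24 h and 0 h in gill at an adjusted p under 0.05, against 0.848% of all 75716 tested transcripts. Because the rule used this contrast, nothing is read from that count. The called member had 13.8, 12.8 and 14.6 FPKM in gill at 24 h, against 5.22, 7.99 and 6.53 FPKM at 0 h (difference 0.975, SE 0.198; limma adjusted p = 0.0469, and 0.0527 with gill fitted alone). It is mentioned only because it was the single call of the fit to all 12 libraries. With gill fitted alone 1 member was called too, but a different one. The gill libraries of the times did not overlap in 47 members (22.9%), against 21.2% of tested transcripts; 26 were higher at 24 h and 21 lower, against 11.9% and 9.32%.

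Replicates of the members were spread more widely, in the median, than those of gill transcripts at large, a difference that was not tested. The median SD over 3 replicates on the log2 scale was 0.26 at 24 h and 0.281 at 0 h. For all 21427 transcripts at 3 FPKM or more in the 6 gill libraries, it was 0.149 at 24 h and 0.158 at 0 h. The highest gill library exceeded the lowest by a median factor of 2.02 in the members and 1.54 in all 21427, whose levels are somewhat higher. A factor below 1.5 was found in 31 members, and 4 or more in 8.

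The extremes of that range differed widely. The tightest member had 10.2, 9.98 and 10.2 FPKM in gill at 24 h, against 9.67, 10.3 and 8.72 FPKM at 0 h, a factor of 1.18. The loosest had 6.83, 9.73 and 12.7 FPKM at 24 h, against 44.8, 26.6 and 4.83 FPKM at 0 h, a factor of 9.28. Its mean difference of -0.89 lay inside the limit, while its 0 h libraries held both its highest and its lowest gill value. Next came a member with 22.1, 24.3 and 4.70 FPKM at 24 h, against 6.75, 17 and 40.5 FPKM at 0 h, whose replicates varied by more than its times. These 3 were chosen after their values were seen.

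The gill libraries also differed in the summed level of the members. The sum was 2144, 2007 and 2193 FPKM at 24 h, against 2237, 2242 and 1876 FPKM at 0 h. Replicate 3 of 0 h held the lowest value for 59 of the 205 and the highest for 15, and replicate 2 of 0 h the highest for 53 and the lowest for 24. The median deviation from a member's own gill mean was -0.155 in replicate 3 of 0 h and 0.131 in replicate 2 of 0 h. Over all 21427 transcripts it was -0.045 in replicate 3 and 0.016 in replicate 2. Sequencing depth relative to the mean library, read from the steps between low values, was 0.907 in replicate 3 and 1.10 in replicate 2 of 0 h. Gill 24 h replicate 2, at a relative depth of 1.09, had a deviation of -0.072 and was lowest for 44 members and highest for 18. The part of depth was not tested.

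**Figure D3:**
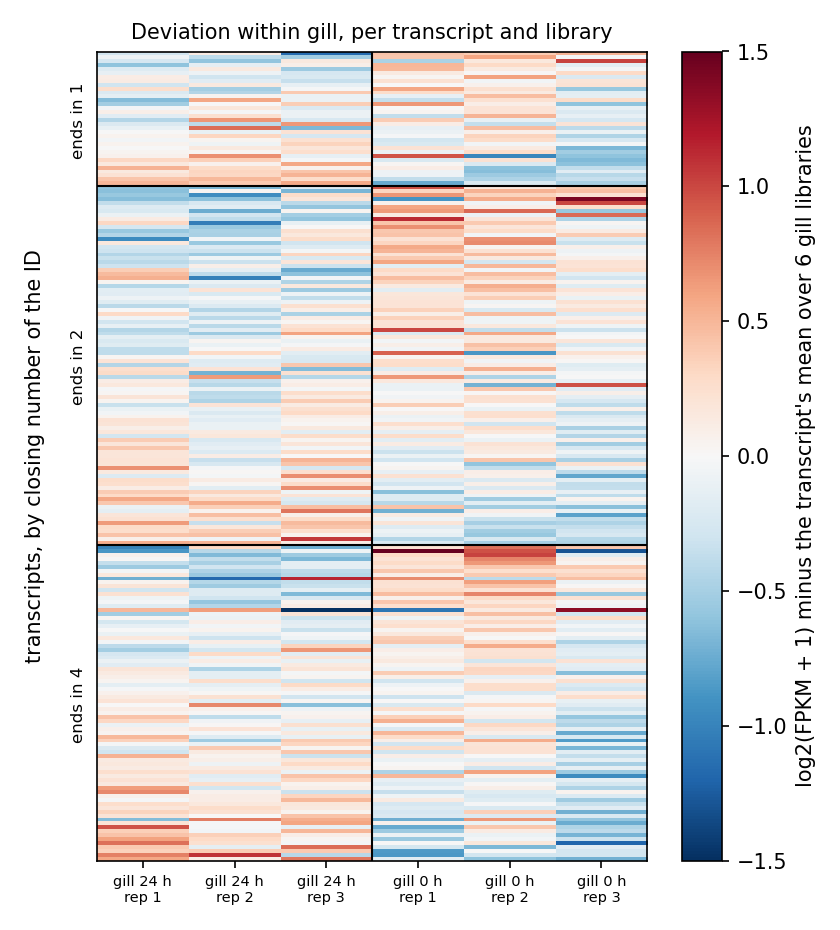
Deviation of each of the 205 transcripts (rows) from its own mean over the 6 gill libraries (columns), on the log2(FPKM + 1) scale. Transcripts are grouped by the number that ends their ID (34 end in 1, 91 in 2, 80 in 4) and ordered by difference over time. Gill 0 h replicate 3 is the lowest library for 59 of the 205.

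In kidney, 87 members (42.4%) were listed at exactly 0 in all 6 libraries. Of the 1230 kidney values of the 205 transcripts, 735 were exactly 0, 178 lay above 0 but below 1e-06 FPKM, and 317 were 1e-06 FPKM or more. The smallest of the values above 0 was 1.83e-118 FPKM. Values this small cannot come from whole fragments, so the deposited FPKM include fractional estimates, and a listed 0 may also be an estimate. With values under 1e-06 FPKM set aside as nothing, 109 members had no kidney signal, 84 had it in 1 to 5 libraries and 12 in all 6. For those 12, the mean gill level was a median of 252 times the mean kidney level, with a range of 107 to 1180 times.

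Kidney traces were seen at both times. A value of 1e-06 FPKM or more was found in 57, 49 and 34 members in kidney at 24 h, against 52, 61 and 64 members in kidney at 0 h. The ranges of the times overlapped. Relative depth was 1.12, 0.863 and 0.893 in the libraries of 24 h and 1.01, 1.03 and 1.02 in those of 0 h, and its part was not tested. Traces occurred at both times in 69 members, only at 24 h in 9 and only at 0 h in 18. Among all traces the median was 0.0362 FPKM.

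The traces went with a feature of the ID that the rule did not use, although the traces themselves were held below 0.1 FPKM by the rule. The part of that limit and of transcript length in this pattern was not tested. The number after i in a Trinity ID tells which of the alternative assembled forms of a gene the sequence is. Of the 69 members with a form number above 1, 56 (81.2%) had a kidney trace and 5 (7.25%) were listed at 0 in all 6 kidney libraries. Of the 136 members with form number 1, 40 (29.4%) had a trace and 82 (60.3%) were listed at 0 throughout. Transcripts that were no members but lay below 0.1 FPKM in all kidney libraries showed the same order, with a trace in 49.3% of 211 with a form number above 1 and in 7.53% of 3929 with form number 1. A form number above 1 was found in 33.7% of members, 51.8% of all transcripts at 3 FPKM or more in all gill libraries and 23.4% of all 84875. The median gill level was 9.57 FPKM for members with a form number above 1 and 7.65 FPKM for the others.

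A second feature of the IDs, the number from 1 to 4 that closes them, was distributed unevenly; neither the labels nor the file say what it stands for. Of the members, 91 (44.4%) ended in 2, 80 (39.0%) in 4, 34 (16.6%) in 1 and 0 in 3. In all rows each number accounted for 24.2% to 26.6%, and among transcripts at 3 FPKM or more in all gill libraries 24.2% ended in 3. Kidney-limited steady transcripts had the mirrored composition for 2 and 3, with 47 of 83 (56.6%) ending in 3 and 0 ending in 2. Of the rest, 21 (25.3%) ended in 1 and 15 (18.1%) in 4. Over all 84875 rows, transcripts ending in 2 stood above their own mean in all 6 gill libraries, most of all in gill 0 h replicate 1 (0.62 on the log2 scale) and gill 0 h replicate 3 (0.495). Those ending in 3 stood above their mean in all 6 kidney libraries. Transcripts ending in 4 stood above theirs in all 6 gill libraries, by 0.022 to 0.336, but also in kidney 0 h replicate 3 (0.07). Transcripts ending in 1 changed sign within each tissue, with 0.146 in gill 24 h replicate 2 and -0.276 in kidney 0 h replicate 2. The closing number thus moves with the tissue across the whole table, most plainly for 2 and 3. Its part in the choice of members was not tested. The median gill level was 9.29 FPKM for members ending in 1, 7.90 for 2 and 8.24 for 4, and the median difference over time was -0.01, -0.14 and 0.055; these were not tested against each other.

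**Figure D4:**
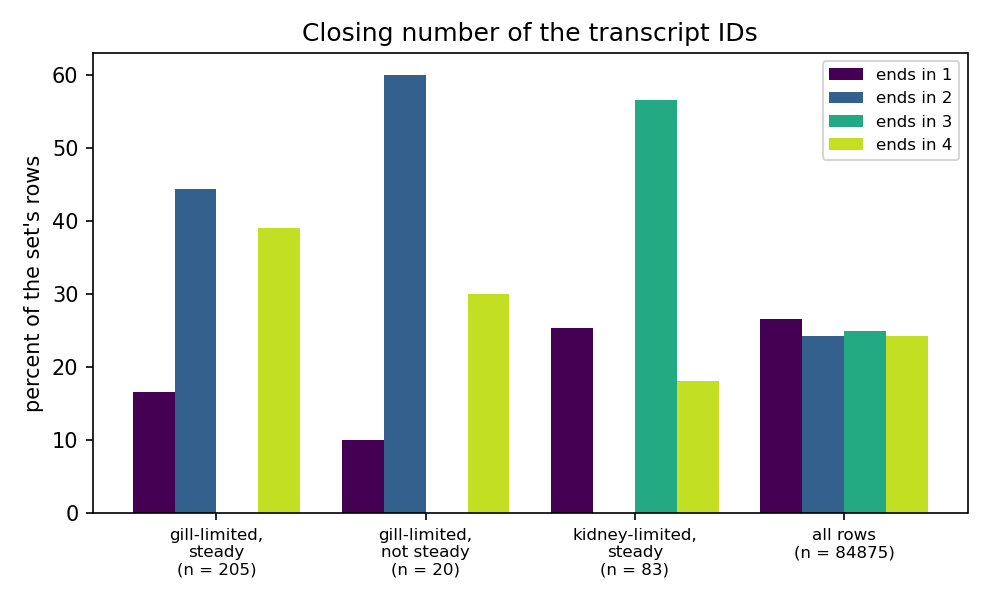
Percent of rows whose ID ends in 1, 2, 3 or 4, among gill-limited steady (n = 205), gill-limited not steady (n = 20), kidney-limited steady (n = 83) and all 84875 rows. No gill-limited transcript ends in 3 and no kidney-limited steady one ends in 2, while all rows are spread evenly.

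Trinity groups sequences that overlap into components, so transcripts of the same component can be pieces, forms or close relatives of a gene. The table holds a single row for each Trinity gene and closing number, and components were therefore the closest grouping left. The 205 members fell into 196 components, with 17 members sharing a component with another member. In 131 components no further row was listed. The other 65 components held 120 further rows that were not chosen by the rule. Pairs of rows of the same component and closing number had a median profile correlation of 0.37 over the 12 libraries (6536 pairs), against 0.035 for pairs drawn at random (29556 pairs) and -0.02 for rows with the same gene numbers but another closing number (10137 pairs). All pairs share the 12 libraries, and rows of low mean level were left out. Random pairs were drawn whatever their closing number, so the part of a shared closing number in the 0.37 was not tested. These values are descriptions, and in them rows of different closing numbers were as unlike as unrelated rows.

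Most of the 120 neighbouring rows were higher in gill as well. Of the 120, 93 (77.5%) were higher in gill than in kidney and 4 (3.33%) lower in the average of both times (limma adjusted p under 0.05), against 21.8% higher and 19.8% lower among all tested transcripts. Their median difference was 1.61 on the log2 scale, against -0.05 for all tested. Of the 120, 63 were below 1 FPKM in all 6 kidney libraries and so passed the filter on low values through gill alone, which favours a higher level in gill. All 120 pass that filter, so a fit without it kept the same rows (93 higher in gill and 4 lower) and cannot address this. In the planned grouping by gene numbers whatever the closing number, 25 of 120 rows (20.8%) were higher in gill and 26 (21.7%) lower, with a median of -0.12, near the shares of all tested transcripts. All 6 gill libraries lay above all 6 kidney libraries in 77 of the 120 (64.2%), against 13.7% of tested transcripts. At 24 h alone, 81 were higher in gill, against 15.6% of tested transcripts, and at 0 h alone 83 were higher, against 17.3%. Neighbouring rows can share fragments with the members, and 31 of the 120 were at 1 FPKM or more in all 6 kidney libraries, in 24 components. Members had been set aside, and none of the 120 was among the 20 gill-limited transcripts outside the steady limit. Of the 120, 15 were below 0.1 FPKM in all kidney libraries.

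The share of neighbours higher in gill was above that of all tested rows within each closing number. Here too, 63 of the 120 neighbours had passed the filter on low values through gill alone. All 120 pass that filter, so dropping it kept the same rows (93 higher and 4 lower) and cannot address this. The part of the filter within each closing number was not tested. For rows ending in 1, 15 of 21 neighbours (71.4%) were higher in gill, against 10.8% of all tested rows with that number. For rows ending in 2 it was 55 of 63 (87.3%), against 47.0%, and for rows ending in 4 it was 23 of 36 (63.9%), against 27.0%. Median differences were 1.5, 1.67 and 1.19 on the log2 scale in the neighbours, against -0.20, 0.56 and 0.13 in all tested rows of the same numbers.

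**Figure D5:**
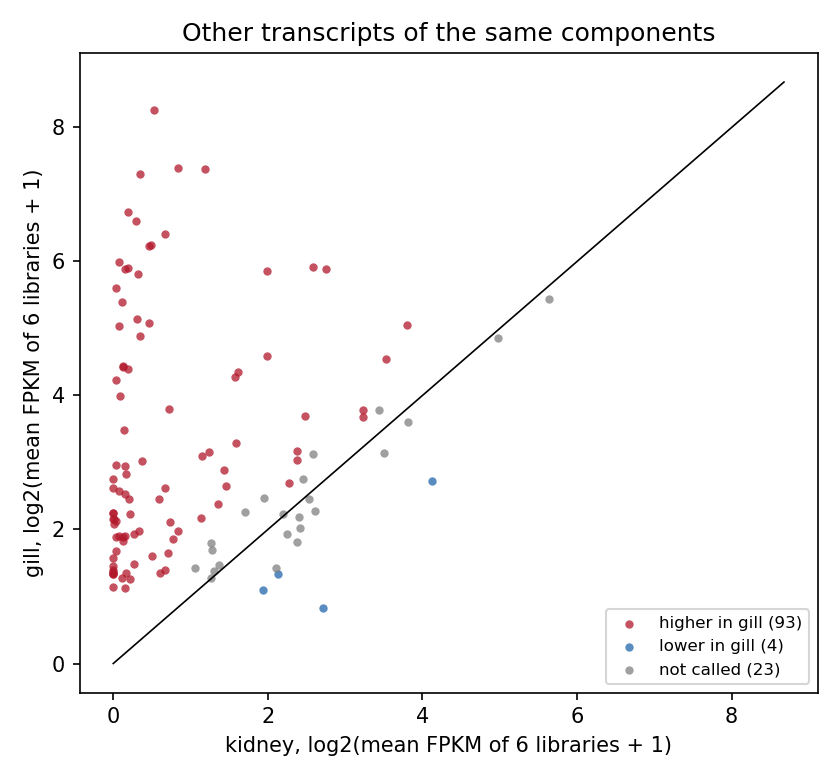
Mean level of the 120 neighbouring rows of the members' components in gill (y axis) and kidney (x axis), as log2(mean FPKM of 6 libraries + 1). Colours give the limma call between the tissues: 93 higher in gill, 4 lower and 23 not called. Most points lie above the line of equal levels, and 63 of the 120 rows were below 1 FPKM in all 6 kidney libraries.

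Single components show how members and neighbours differ; those described here belong to the named members or were chosen after their values were seen. The component of TRINITY_DN27850_c2_g1_i9_4 held a row with 60.9, 77.9 and 42.1 FPKM in gill at 24 h and 45.2, 38.5 and 90.4 FPKM in gill at 0 h. In kidney that row had 9.05, 4.02 and 4.21 FPKM at 24 h and 4.30, 2.65 and 5.80 FPKM at 0 h, so it was as abundant in gill as the member but plainly present in kidney. The component of TRINITY_DN26995_c4_g2_i2_4 held a row with 4.93 to 11.3 FPKM in the gill libraries that was listed at 0 in 5 kidney libraries and at 0.151 FPKM in the other. That row missed the rule by its single kidney value. The most abundant neighbour had 303, 268 and 288 FPKM in gill at 24 h and 355, 269 and 355 FPKM in gill at 0 h, against 0.0589 to 0.884 FPKM in the kidney libraries.

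The reverse pattern occurred too. In the component of a member with 25.6, 35.2 and 28.9 FPKM in gill at 24 h and 31.8, 33.1 and 36.8 FPKM at 0 h, listed at 0 in all kidney libraries, a neighbouring row was kidney-rich. That row had 0.422, 0.579 and 0.842 FPKM in gill at 24 h and 1.04, 0.569 and 1.19 FPKM in gill at 0 h. In kidney it had 8.44, 6.49 and 5.87 FPKM at 24 h and 4.98, 2.79 and 4.68 FPKM at 0 h. The tissues did not overlap in it, with a difference of gill minus kidney of -1.85 on the log2 scale (limma SE 0.18; adjusted p = 4.77e-06).

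Over time, few neighbouring rows were called, which does not show that the others were steady. In gill 2 of the 120 (1.67%) fell at 24 h and 0 rose, against 0.433% lower and 0.415% higher among all tested transcripts; 16 (13.3%) had an unadjusted limma p under 0.05, against 11.4% of all tested. The larger of these falls reached 1.38, 0.942 and 1.66 FPKM in gill at 24 h, against 11, 4.95 and 11.8 FPKM at 0 h (log2 change -2.07, SE 0.418; limma adjusted p = 0.0457). In kidney 1 row (0.833%) rose, against 0.623% of tested transcripts. It had 5.77, 6.06 and 4.92 FPKM in kidney at 24 h, against 2.58, 1.32 and 2.47 FPKM at 0 h (log2 change 1.10, SE 0.206; limma adjusted p = 0.0358), while the median of all tested transcripts moved by 0.10 in kidney. None of the 120 was called for a difference between the tissues' changes by limma, where 0.0502% of tested transcripts were called; 11 (9.17%) had an unadjusted p under 0.05, against 8.72% of all tested. The count of 2 in gill became 0 when any one of gill 24 h replicates 1 and 3, gill 0 h replicates 1 and 3 and kidney 24 h replicates 1, 2 and 3 was left out. It became 1 without gill 24 h replicate 2, gill 0 h replicate 2 or kidney 0 h replicate 3, and 3 without kidney 0 h replicate 2. The count of 1 in kidney stayed at 1 without kidney 0 h replicate 1 or 2 and became 0 when any one of the other 10 libraries was left out.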

How the data were processed

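RNA of 12 libraries was measured by RNA sequencing. Per the labels' protocols, TRIzol was used to extract total RNA. Trimmomatic, a read trimmer, is named in the submitters' processing notes; nothing in the sources used here states the assembly settings, aligner or counter. The values analysed are FPKM as the authors deposited them, with 1 column per library under IDs of the form that Trinity writes. Counts were not analysed here, so absolute depth is unknown. Relative depth, from the modal ratio of low values in 11963 rows listed at 0 in 4 or more libraries, ran from 0.863 to 1.12 (largest pair residual 0.06 on the log2 scale). Summed FPKM ran from 631998 to 714003 per library.

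The members, lists and comparisons were chosen with earlier results of these data known. Groups were taken from the sample titles. Transcripts at 1 FPKM or more in 3 or more of the 12 libraries (75716, 89.2%) were fitted with limma 3.58.1 in R 4.3.3 on log2(FPKM + 1), with 4 group means, a mean-variance trend and 8 residual degrees of freedom. Fold changes on that scale understate the change of low transcripts. Calls are two-sided at a Benjamini-Hochberg adjusted p under 0.05 over all tested rows, and p-values measure the spread between libraries, which may be technical. For each transcript the 4 groups share a single estimate of that spread. Kidney libraries at or near 0 therefore also enter the SE of differences within gill. The scripts were tested on simulated data. Of 100 rows given a log2 change of 1, 25% were called over time in gill and 23% over time in kidney. With a log2 change of 2 these shares were 77% and 71%. Among rows given no change, 9 were called over time in gill and 3 in kidney. The changed rows were drawn from those with a mean log2 level above 2 over the 12 libraries. All groups were simulated around a common mean with equal spread. Members are near 0 in kidney and so differ from such rows, and these shares need not hold for them. Named members are, by mean gill log2 level, the top 2 with a positive and the top 2 with a negative difference over time. Marker lists of gill, kidney tubule and blood-forming cells could not be matched, since the IDs carry no gene names. The planned comparison with other rows of the members' Trinity genes found no second row for any gene and closing number, so components were used instead, a choice made after the data were seen. Alternatives covered the limits of the rule, pseudocount, scaling, filter, replicate block and each library left out.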

Additional observations from a re-analysis of the deposited data

How the results depend on the processing

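The number of gill-limited steady transcripts depended on the limits of the rule. It was 659 with a gill minimum of 1 FPKM, 23 with 10 FPKM, 87 with a listed 0 in all kidney libraries and 666 with a kidney maximum of 0.5 FPKM. Other limits, pseudocounts and scalings gave 158 to 220, and leaving out 1 library gave 211 to 241, with at least 200 of the 205 among them. Without a kidney library all 205 stay by construction. The neighbours called between gill and kidney numbered 97 (93 higher, 4 lower) of 120 tested. For rows with the same gene numbers whatever the closing number, 51 (25 higher, 26 lower) of 120 tested were called. A grouping added after the data were seen took rows with the same DN and closing number. There 162 (144 higher, 18 lower) of 235 tested were called. These groupings used the same fit, in which 21.8% of all tested transcripts were higher in gill and 19.8% lower. Other settings gave 83 to 99 and single libraries left out 93 to 99. The neighbours called over time in gill, 2 as reported, were 0 with a pseudocount of 0.1, 1 with equal totals, 1 with the gill groups alone and 0 for rows with the same gene numbers whatever the closing number. In kidney the 1 call became 0 with the kidney groups alone and 0 for rows with the same gene numbers. Leaving out 1 library at a time gave 0 to 3 calls in gill and 0 or 1 in kidney. The members called over time in gill, 1 as reported, were 0 with a pseudocount of 0.1 and 2 with equal totals; without single libraries they ranged from 0 to 3, the 3 without kidney 0 h replicate 2. The differences of the named members moved by less than the spread between replicates under every alternative run; without single libraries that of TRINITY_DN28221_c1_g3_i7_2 ranged from -0.47 to 0.17 and that of TRINITY_DN27850_c2_g1_i9_4 from 0.84 to 1.19, on both sides of the limit of the rule. Shares of all tested transcripts under most settings other than the main fit are not given here. The called counts above therefore show only how far they moved. The cause of these shifts was not tested.

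With the replicate number as a block, limma called 97 neighbours between the tissues, 0 over time in gill (13 at an unadjusted p under 0.05), 0 over time in kidney (9) and 0 of the members over time in gill (32). The shares of all tested transcripts under the block are not given here, so nothing is read from these counts. For the members, the rule also used this contrast. The labels do not say that equal numbers share a fish or batch. Deviations of same-numbered libraries from their group means correlated at -0.0249 to 0.0125 between gill 24 h and gill 0 h, at 0.109 to 0.137 between gill 24 h and kidney 24 h, and at -0.00854 to 0.0915 between gill 0 h and kidney 0 h. At 24 h all 6 libraries correlated best with their own number in the other tissue, a hint from the data only. At 0 h this held for 3 of the 6. The block used the numbers of the sample titles; replicate 3 of kidney 24 h has the library name number 3, whereas replicate 3 of the other groups has the library name number 4.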

Other observations

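The 20 gill-limited transcripts outside the limit on the change over time had differences of 24 h minus 0 h in gill from -3.20 to 1.81 on the log2 scale. In 7 of the 13 with a negative difference, gill 0 h replicates 1 and 3 were both at least 2 times replicate 2 of the same time. The same was seen in 1 of the 205 steady members. The limit that parts these sets uses the same gill values, and the pattern was not a planned comparison, so these counts are descriptions. Of the 20, 12 ended in 2, 6 in 4 and 2 in 1.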
